A study of Arabidopsis thaliana with 28 samples.

Results

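The comparison described here was made at ZT12, the last hour mark of a daily warm period in *Arabidopsis thaliana* seedlings, where ZT counts hours from lights on. It rests on 4 of the 28 libraries of the series, chosen as those labelled ZT12, with 1 library for each of 4 conditions. The conditions were Col-0, the common laboratory wild type, at constant 17 °C, Col-0 under the oscillating regime, *pif7* at constant 17 °C and *pif7* under the oscillating regime. In the oscillating regime seedlings spent ZT4 to ZT12 at 27 °C and the rest of the day at 17 °C, so the ZT12 sample had been warm for 8 h; whether it was frozen just before or just after the return to 17 °C is not given in the sources used here. All seedlings were 7 d old, grew on plates in 16 h light and 8 h dark at 35 to 40 µmol m-2 s-1, and were ground whole. The *pif7* line is named without its allele. The regime difference below is always oscillating minus constant, paired within genotype.

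PIF proteins are basic helix-loop-helix transcription factors that promote stem and petiole growth and are held in check by the light receptor phytochrome B, which also loses activity in warmth. In long days their genes are transcribed mainly by day and are silenced around dusk by the evening complex of the circadian clock, made of ELF3, ELF4 and LUX. The clock itself is a loop of morning MYB factors (CCA1, LHY and the RVE family), pseudo-response regulators (PRR9, PRR7, PRR5, PRR3 and TOC1, in the order in which they peak through the day) and evening genes, many of which carry an evening element in the promoter to which the morning factors bind. A sample taken at ZT12 therefore falls where many day-phased transcripts are on their way down. Later-phased ones need not be at their peak then. In the constant libraries *LUX* and *PRR5* were already lower at ZT12 than at ZT8, whereas *PRR3* was higher.

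Levels are rescaled TPM, the deposited transcripts-per-million-like values of the reference genes divided by a factor per library. Differences are on the scale of log2(rescaled TPM + 1), so they understate the change of low genes. Where 2 values are given for a regime, Col-0 comes first and *pif7* second. Each difference has a standard error (SE) from a limma fit over all 28 libraries, and a gene was called higher or lower at a Benjamini-Hochberg adjusted p under 0.05. As there is 1 library per condition, and nothing says how many pools of seedlings each holds, p measures how constant a difference was between the genotypes while variation among separate pools of plants was not measured. The depth of the 4 libraries was 1.72 to 2.78 gigabases.

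*PIF7* (AT5G61270, on the minus strand of chromosome 5 between 24638773 and 24640600 in TAIR10), the gene named in the mutant label, stood at 13.5 and 14.8 in the constant and oscillating Col-0 libraries and at 3.41 and 5.72 in those of *pif7*. Both *pif7* libraries lay below both Col-0 libraries, as labelled. *PIF7* itself did not pass for the regime (0.36 ± 0.30, SE, adjusted p = 0.451).

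Of 21031 genes tested at ZT12, 3402 (16.2%) were called. Among these 1920 (9.13%) were higher and 1482 (7.05%) were lower in the oscillating regime. All 3402 had the same sign in both genotypes. The call itself selects for agreement between the pairs, so this is no separate replication. Counts of called members of the gene lists below are to be read beside these shares. A difference of at least 1 log2 unit was reached by 592 of the higher and 381 of the lower genes, and of at least 2 units by 74 and 32. The median difference of all genes was 0.01. The total was 1074 without the Col-0 pair and 1460 without the *pif7* pair, and 1789 when the 4 ZT12 libraries were fitted alone, which leaves 1 residual degree of freedom.

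**Figure D1:**
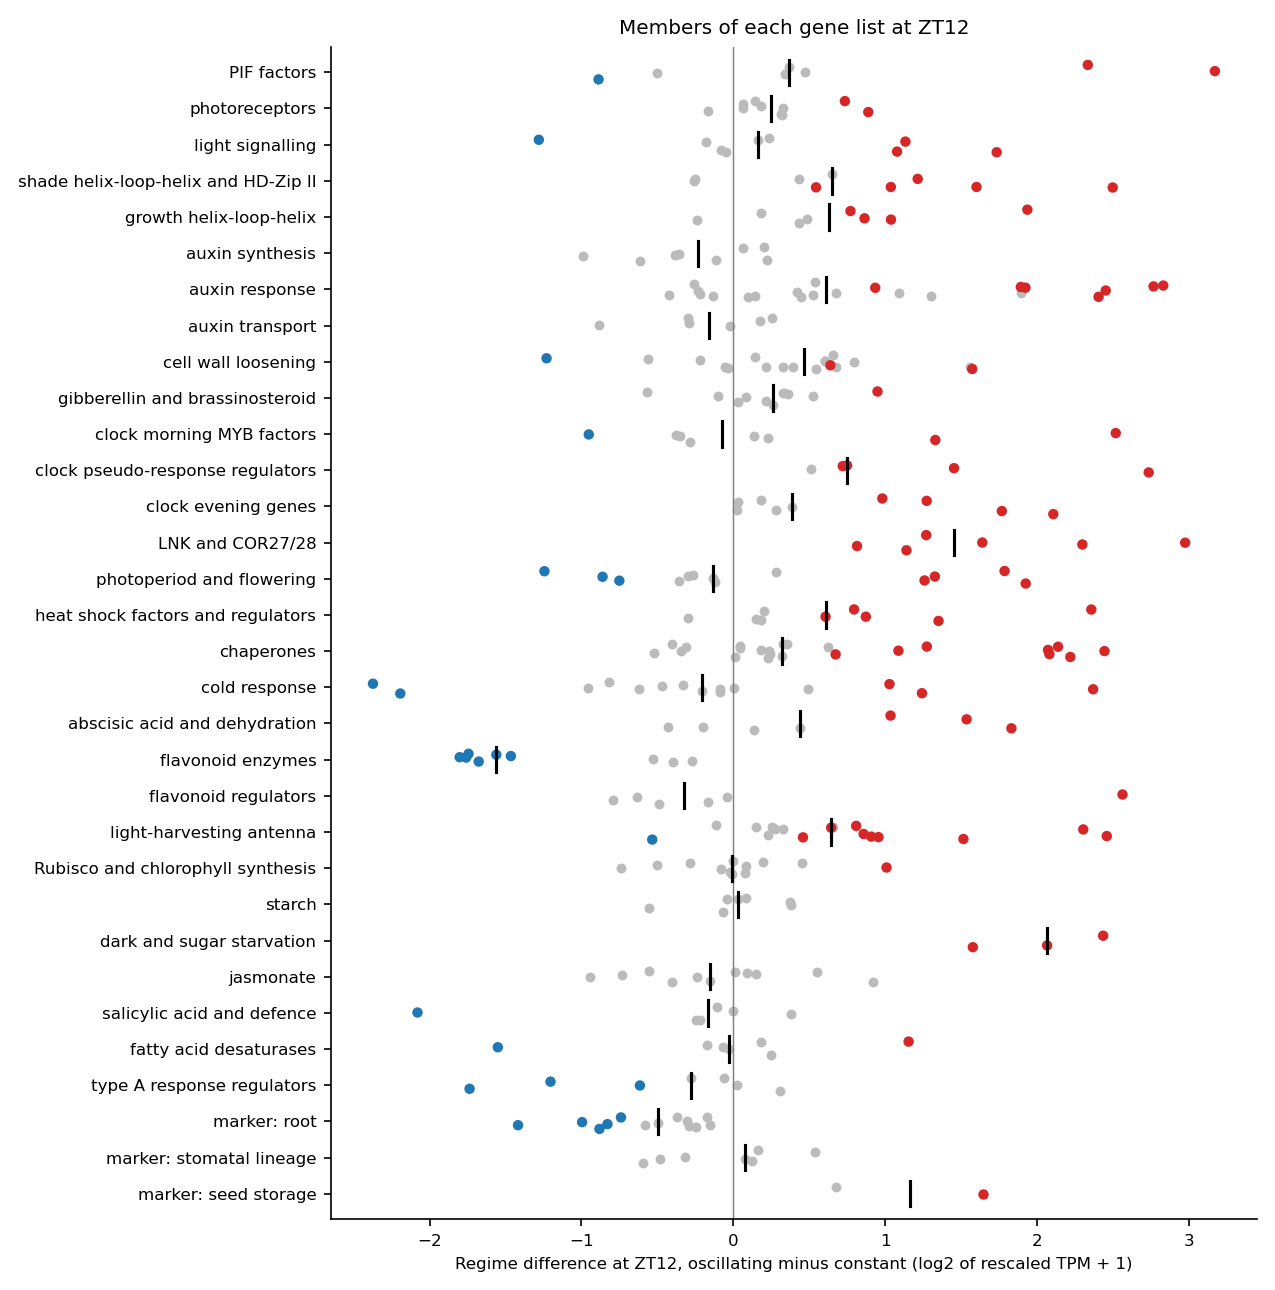
Regime difference at ZT12 (x axis, log2 scale, averaged over Col-0 and *pif7*) of every tested member of 32 gene lists (rows). Red and blue points passed as higher and lower, grey points did not pass, and the black bar is the list median; the LNK and COR27/28 list has 6 of 6 members higher, the flavonoid enzymes 6 of 9 lower, and the root markers 13 of 13 below 0.

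The PIF genes were called in both directions. *PIF4* (AT2G43010, chromosome 2, 17886427 to 17889050, plus strand), the family member best known for growth in warmth, stood at 9.84 and 6.96 in the constant and at 81.5 and 83.8 in the oscillating libraries. The 2 regimes were far apart in both genotypes, and the difference was 3.171 ± 0.18 (SE, adjusted p = 4.59e-06). *PIF5* (AT3G59060), which shares much of PIF4's work, stood at 10.8 and 9.51 in constant and at 53.6 and 56.9 in oscillating libraries, a difference of 2.33 ± 0.22 (SE, adjusted p = 0.000121). *PIF8* went the other way, from 15.4 and 11.7 to 7.18 and 6.41 (-0.89, adjusted p = 0.0146). It did not pass without the Col-0 pair (-0.77, adjusted p = 0.15) or without the *pif7* pair (-1.002, adjusted p = 0.063). *PIF1* (0.47), *PIF3* (0.34) and *PIL2* (-0.50) did not pass, so 2 of the 7 PIF genes were higher and 1 was lower.

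At constant 17 °C *PIF4* stood at 63.1 and 60.5 at ZT8, was at its ZT12 level given above 4 h later, and was at 1.12 and 1.67 at ZT16. In the oscillating regime it was still near its ZT8 level of 97.5 and 84.6 at ZT12, and was at 6.13 and 5.48 at ZT16. The regimes were thus furthest apart at ZT12 among the 3 times, and the regime difference there exceeded that at ZT8 by 2.62 (adjusted p = 0.000475) and that at ZT5 by 2.47 (adjusted p = 0.000225). With a single time point at the edge of the decline, a higher level and a later decline cannot be told apart. This limit applies to any gene that was higher at ZT12 and whose constant level fell between ZT8 and ZT12. *PIF5*, at 48.55 and 48.1 in the constant libraries of ZT8, is among them.

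**Figure D2:**
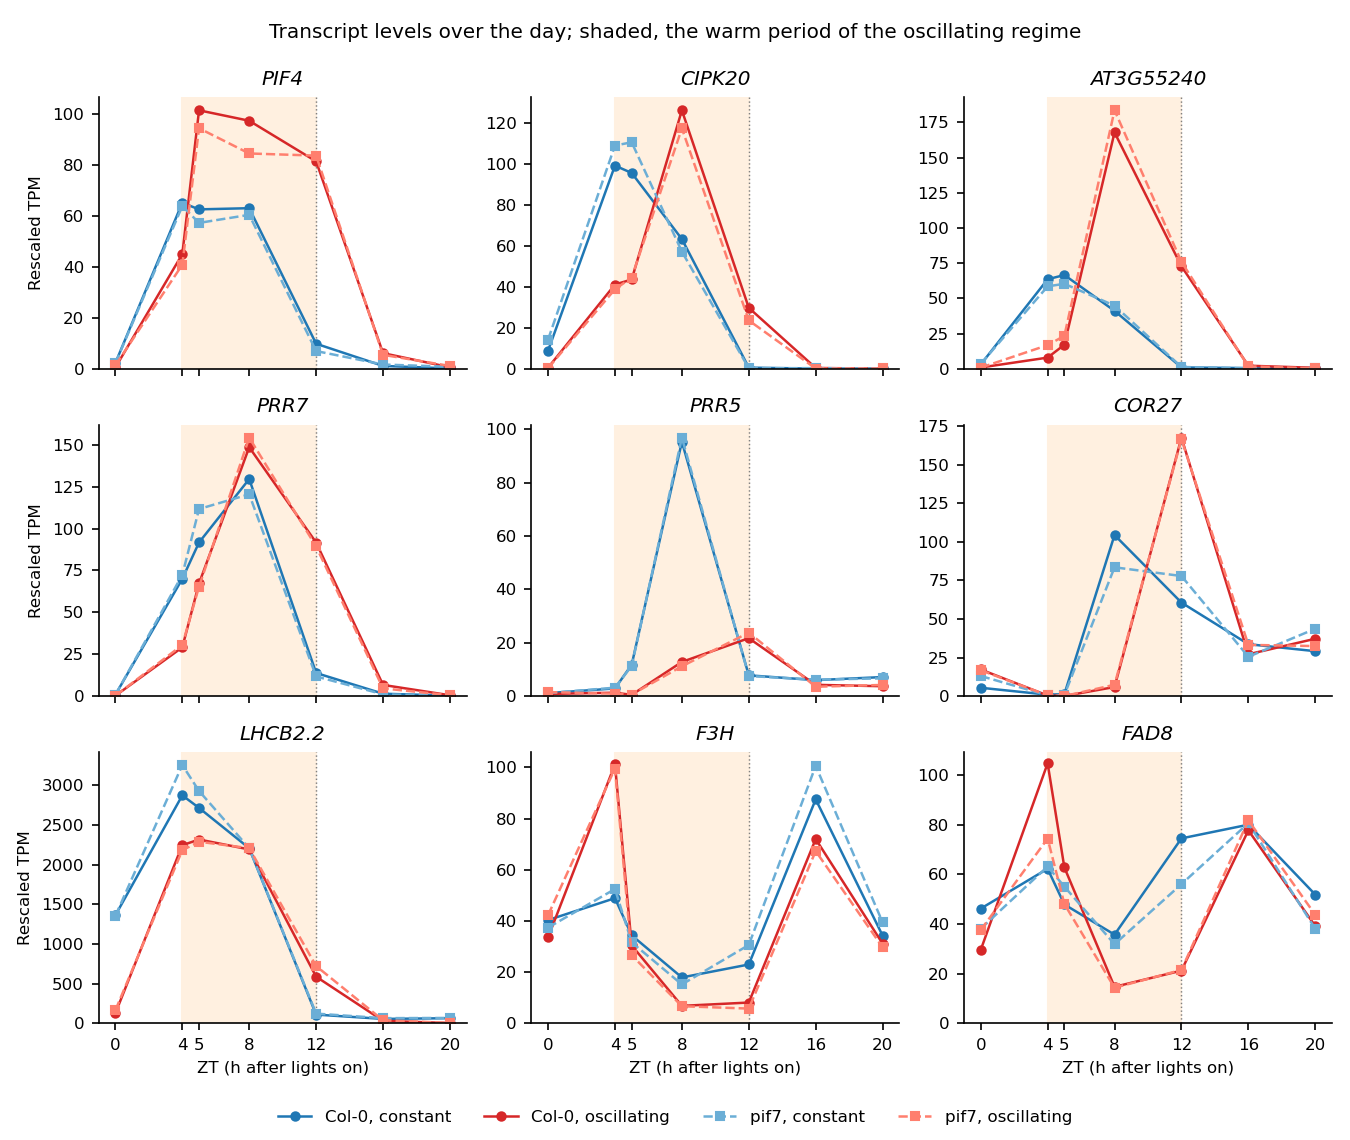
Rescaled TPM (y axis) against ZT in hours (x axis) for 9 genes, with 1 point per library; blue is the constant and red the oscillating regime, solid lines with circles are Col-0 and dashed lines with squares *pif7*, the shaded span is the warm period and the dotted line marks ZT12. *PIF4*, *CIPK20*, AT3G55240, *PRR7* and *LHCB2.2* are higher at ZT12 in both oscillating than in both constant libraries, *PRR5* and *COR27* peak at ZT8 in constant and at ZT12 in oscillating libraries, and *F3H* and *FAD8* are lower at ZT12 under the oscillating regime.

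The gene with the highest difference was AT3G55240 (chromosome 3, 20473541 to 20474763, minus strand), which encodes a plant protein of unknown function. It stood at 0.93 and 1.26 in constant and at 72.8 and 76.0 in oscillating libraries, a difference of 5.17 ± 0.23 (SE, adjusted p = 1.17e-06). *CIPK20* (AT5G45820), a protein kinase that works with calcineurin B-like calcium sensors, went from 0.56 and 0.24 to 29.8 and 23.61 (4.30 ± 0.20, SE, adjusted p = 1.17e-06). Both were near 0 in the constant libraries at ZT12 and above 20 units in the oscillating ones, with no overlap. In the constant libraries of ZT8, however, AT3G55240 stood at 41.15 and 44.8 and *CIPK20* at 63.3 and 57.2. As for *PIF4*, a higher level and a later decline cannot be told apart. *BBX28*, a B-box protein that dampens the light regulator HY5, went from 1.19 and 1.21 to 19.3 and 16.1 (3.08 ± 0.16, SE). The same limit holds for *BBX28*, at 44.2 and 34.9 in the constant libraries of ZT8. Others of the 10 highest were AT3G59930, a defensin-like peptide (3.68), *RTFL21*, a small ROTUNDIFOLIA-like peptide (3.604), AT2G15880, of a leucine-rich repeat family (3.34), and AT1G65970, a thioredoxin-dependent peroxidase (3.23), all with an adjusted p of at most 0.00308. AT1G65970 did not pass without the Col-0 pair (2.40, adjusted p = 0.073). At ZT5 both AT3G55240 (-1.62) and *CIPK20* (-1.204) had differences of the other sign.

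Clock genes were often called, with 16 of 28 higher and 1 lower and a median of 0.78, against 9.13% and 7.05% of all genes and a median of 0.01. Among the pseudo-response regulators 4 of 5 were higher. *PRR7* (AT5G02810, chromosome 5, 637897 to 641977, minus strand), a daytime repressor of the morning factors, stood at 13.8 and 11.8 in constant and at 91.7 and 89.3 in oscillating libraries (2.73 ± 0.13, SE, adjusted p = 1.17e-06). *PRR5*, which follows PRR7 in the daily sequence, stood at 7.80 and 7.54 in constant and at 21.7 and 23.8 in oscillating libraries (1.45 ± 0.17, SE, adjusted p = 0.00041). Both regimes were tight across the genotypes and did not overlap. *PRR7* was at 129.6 and 120.5 in the constant libraries of ZT8, so the limit given for *PIF4* holds for it too. *PRR3* (0.75) and *PRR9* (0.72) passed as well. *PRR3* had 0.66 (adjusted p = 0.13) without the Col-0 pair and 0.84 (adjusted p = 0.058) without the *pif7* pair, and *PRR9*, at 0.15 to 1.43 units in all 4 libraries, had 0.51 (adjusted p = 0.21) without the Col-0 pair. *TOC1*, the last of the series, had 0.51 (adjusted p = 0.0567).

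All 6 genes of the LNK and COR27/28 group, which encode partners of the RVE factors (LNK) and regulators that link the clock to blue light and cold (COR27 and COR28), were higher. *LNK1* went from 2.15 and 3.08 to 16.3 and 17.0 (2.298 ± 0.16, SE) and *LNK4* from 1.195 and 0.93 to 17.81 and 12.9 (2.98 ± 0.19, SE). *LNK2* (1.64) and *LNK3* (1.14) followed. In the constant libraries of ZT8 *LNK1* was at 26.7 and 24.2, *LNK4* at 42.1 and 22.6 and *LNK2* at 52.65 and 45.7. The limit given for *PIF4* therefore holds for these genes. *COR27* stood at 60.6 and 77.8 in constant and at 168 and 167 in oscillating libraries (1.27 ± 0.29, SE, adjusted p = 0.0134). *COR28* had 0.81 (adjusted p = 0.0266). Neither passed with 1 pair left out: *COR27* had 1.09 (adjusted p = 0.15) without Col-0 and 1.45 (adjusted p = 0.058) without *pif7*, and *COR28* 0.98 (adjusted p = 0.094) and 0.65 (adjusted p = 0.21).

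Of the 9 evening genes 4 were higher and 0 were lower. *GI*, a scaffold of photoperiod timing, went from 7.66 and 6.90 to 31.7 and 37.9 (2.11 ± 0.23, SE, adjusted p = 0.000347). *LUX*, the DNA-binding subunit of the evening complex, went from 42.8 and 54.6 to 162 and 173 (1.77 ± 0.18, SE, adjusted p = 0.000168). In the constant libraries of ZT8 *GI* was at 41.9 and 44.2 and *LUX* at 109.5 and 95.1, so the limit given for *PIF4* holds for both. The other evening complex genes did not pass, with 0.39 for *ELF4*. *CHE*, a repressor of *CCA1*, had 1.27, and *FKF1*, a blue-light receptor that removes repressors of *CO*, had 0.98, but *FKF1* missed the threshold without the *pif7* pair (0.93, adjusted p = 0.058). Among the morning MYB genes *RVE7* (2.52) and *RVE4* (1.33) were higher and *RVE2* lower (-0.95), and *RVE2* did not pass without the Col-0 pair (-1.28, adjusted p = 0.051) or without the *pif7* pair (-0.63, adjusted p = 0.25). *CCA1* and *LHY* were at 0.14 to 0.55 units in every ZT12 library, and neither passed.

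ZT8 lies in the middle of the warm period and ZT12 at its end, and the 2 times have separate libraries. At ZT8 2211 genes (10.5%) were called, 1089 higher (5.18%) and 1122 lower (5.33%). Of the genes higher at ZT12, 716 were also higher at ZT8, which is 37.3% of the ZT12 list and 65.7% of the ZT8 list. Of the lower genes 540 were shared, 36.4% of the ZT12 and 48.1% of the ZT8 list. A further 48 genes were higher at ZT12 and lower at ZT8, and 3 the reverse.

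The difference between the times was tested in the same fit and passed for 203 genes (0.965%), 173 of them with the higher regime difference at ZT12 (0.823%) and 30 with the lower (0.143%). Of the 203 genes 48 were higher at ZT12 and lower at ZT8, 46 were higher at ZT12 and not called at ZT8, and 67 were lower at ZT8 and not called at ZT12. The total was 118 without the Col-0 ZT12 pair, 93 without the *pif7* ZT12 pair and 70 with only the libraries of these times. Clock genes supplied 15 of the 203, out of 28 tested.

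The 5 genes with the highest time difference were AT1G07050, a protein with a CCT motif (5.22), AT5G62360, of the invertase and pectin methylesterase inhibitor family (5.22), *COR27* (4.91), *FKF1* (4.83) and *PRR5* (4.36). AT1G07050 shows the pattern: it stood at 177 and 149.5 in the constant and at 4.84 and 5.28 in the oscillating libraries of ZT8, and at 116 and 148 against 186.5 and 176 at ZT12. The regimes were thus far apart at ZT8 and close at ZT12 (0.47, adjusted p = 0.172). *PRR5* was at 95.4 and 96.9 against 12.8 and 11.2 at ZT8, and *FKF1* at 82.5 and 78.3 against 4.71 and 4.56, and both then crossed over to the levels given above for *PRR5* and, for *FKF1*, to 20.9 and 20.7 against 40.8 and 43.3. *LUX* (2.83), *GI* (3.01) and *ELF4* (3.25) had the same direction of time difference. AT5G62360 did not pass without the Col-0 pair (4.86, adjusted p = 0.085) or without the *pif7* pair (5.57, adjusted p = 0.055). At the other end were AT1G64500, a glutaredoxin family protein (-2.35), the cellulose synthase-like gene *CSLB03* (-1.99), *SWEET2*, a sugar transporter of the vacuole (-1.82), and the *CO* relatives *COL1* (-2.73) and *COL2* (-2.37), whose mean levels were under the limit of 5 units used to rank genes.

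The promoters of these genes were searched for the evening element, the 9 letters AAAATATCT on either strand, in a window from 250 bases before to 50 bases after each gene start of the deposited tables, read from the RefSeq TAIR10.1 genome. It was found in 2.77% of all 20834 promoters, 5.81% of those of the genes higher at ZT12 and 3.103% of those lower. Among the 173 genes with a higher regime difference at ZT12 than at ZT8 it was found in 63, or 36.4%, and among the 30 with a lower one in 1. Among the 791 genes with a higher difference at ZT12 than at ZT5 (3.76% of all genes tested) 16.8% held it, and 1.27% of those with a lower one. The letter run is a description of the sequence and does not show that any factor binds there.

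Windows of 60 bases around the element nearest to the gene start are shown for the 8 genes with the highest ZT12 minus ZT8 difference that carry it upstream of both the deposited and the RefSeq start, with no other annotated gene in the window. Each reads 5′ to 3′ on the strand of its gene, and capitals mark the element or its reverse complement AGATATTTT. They lie at chr5:25040468-25040527 (AT5G62360, plus), chr5:17199911-17199970 (*COR27*, minus), chr1:25508427-25508486 (*FKF1*, plus), chr3:17182963-17183022 (*LUX*, plus), chr4:16102461-16102520 (AT4G33467, minus), chr5:19563833-19563892 (*BBX8*, minus), chr4:2118627-2118686 (*RbcX1*, minus) and chr3:1727054-1727113 (*AIF1*, plus).
AT5G62360: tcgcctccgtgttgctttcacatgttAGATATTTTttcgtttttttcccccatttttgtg
COR27: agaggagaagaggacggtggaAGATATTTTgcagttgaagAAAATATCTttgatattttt
FKF1: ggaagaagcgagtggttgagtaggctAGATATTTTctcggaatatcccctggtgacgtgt
LUX: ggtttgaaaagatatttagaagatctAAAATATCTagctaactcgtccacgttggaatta
AT4G33467: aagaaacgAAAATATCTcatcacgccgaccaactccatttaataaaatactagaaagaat
BBX8: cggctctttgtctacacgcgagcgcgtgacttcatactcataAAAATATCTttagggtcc
RbcX1: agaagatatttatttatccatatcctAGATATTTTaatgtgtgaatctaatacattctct
AIF1: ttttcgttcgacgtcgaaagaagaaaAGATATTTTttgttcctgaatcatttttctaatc
*COR27* holds 2 elements in inverted order within its window. For these windows 300 bases were searched, and distance was counted from the first base of the element to the more upstream of the deposited and RefSeq starts. It was 20 bases in *COR27* and 53 in *LUX*, and the median over the 36 genes of the 173 that met these rules was 68.5 bases.

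Other motifs were less unevenly spread. The G-box CACGTG, a site of PIF and HY5 binding that also contains the abscisic acid response core ACGTG, was in 9.37% of all promoters, 13.9% of those higher at ZT12, 10.1% of those lower and 19.1% of those with a higher difference at ZT12 than at ZT8. The telo-box AAACCCTA, common in genes of the translation machinery, was in 8.39% of all, 4.51% of the higher and 9.79% of the lower promoters. The heat shock element core GAANNTTC was in 12.0% of all promoters and in 19.05% of those with a lower difference at ZT12 than at ZT5.

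**Figure D3:**
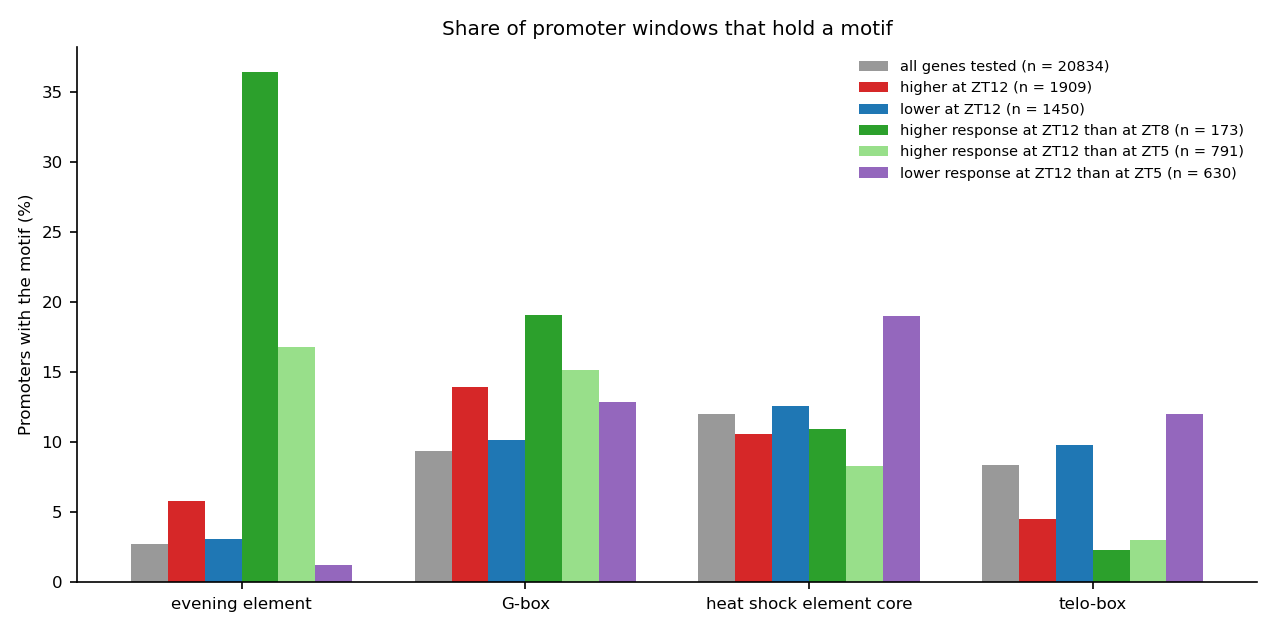
Share of promoter windows that hold a motif on either strand (y axis, %) for 4 motifs (x axis) and 6 sets of genes (colours, with the number of promoters in the legend). The bar for the evening element in the 173 genes with a higher regime difference at ZT12 than at ZT8 reaches 36.4%, against 2.77% over all genes tested.

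Of 13 photoperiod and flowering genes 4 were higher and 3 lower at ZT12. The *CDF* genes, whose products repress *CO*, included *CDF3*, at 4.33 and 3.27 in constant and 15.3 and 19.1 in oscillating libraries (1.93 ± 0.15, SE), *CDF5* (1.79) and *CDF1* (1.26). *CDF3* was at 27.9 and 28.9 in the constant libraries of ZT8, so the limit given for *PIF4* holds for it. *SVP*, a repressor of flowering in the cool, was higher as well, with 35.4 and 39.3 against 95.6 and 94.5 (1.33 ± 0.13, SE, adjusted p = 0.000146). *CO*, the activator of florigen, stood at 5.20 and 3.41 in constant and at 0.74 and 1.80 in oscillating libraries (-1.24, adjusted p = 0.0202), and the florigen gene *FT* at 1.32 and 0.61 against 0.14 and 0 (-0.86, adjusted p = 0.0398). *FLM*, a relative of FLC, was also lower (-0.75, adjusted p = 0.0364). None of these 3 calls held with each pair left out in turn: without the Col-0 pair *CO* had -0.65 (adjusted p = 0.35) and *FT* -0.69 (adjusted p = 0.31), and without the *pif7* pair *FT* had -1.03 (adjusted p = 0.1) and *FLM* -0.33 (adjusted p = 0.44). *FLM* had -1.17 without the Col-0 pair, and neither *FT* (without ZT4, ZT5 or ZT20) nor *FLM* (without ZT5 or ZT8) kept its call with a time left out.

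Genes of the photosynthetic antenna, the chlorophyll-binding proteins that collect light for the photosystems, were higher in 9 of 17 cases and lower in 1, with a median of 0.64. *LHCB2.2* (AT2G05070, chromosome 2, 1799234 to 1800392, minus strand) stood at 112 and 124 in constant and at 589.5 and 723 in oscillating libraries (2.46 ± 0.14, SE, adjusted p = 3.32e-06). *LHCB2.1*, its near-identical neighbour, with which it may share reads, had 118 and 123 against 559 and 639.5 (2.304 ± 0.18, SE). *LHCB4.2* went from 312 and 348 to 860.0 and 1035 (1.51 ± 0.13, SE). At ZT8 0 of the 17 genes were higher and 1 was lower, and the difference between the times passed for 3. The regimes gave nearly the same *LHCB2.2* level there (2207 and 2207 in constant, 2192 and 2208 in oscillating libraries). *LHCB1.1* was lower (-0.53, adjusted p = 0.0364), but it is one of several near-identical copies and did not pass without the Col-0 pair (-0.45, adjusted p = 0.29), without the *pif7* pair (-0.61, adjusted p = 0.12) or without ZT4, ZT5 or ZT8. Of 12 Rubisco and chlorophyll synthesis genes only *CAO*, the enzyme that makes chlorophyll b, passed (1.00, adjusted p = 0.00597), and it had 0.89 (adjusted p = 0.074) without the *pif7* pair.

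The 3 genes of the dark and sugar starvation list were all higher. *DIN6*, an asparagine synthetase induced in darkness, went from 6.02 and 7.22 to 36.8 and 43.6 (2.44 ± 0.23, SE, adjusted p = 0.000127). *SEN1* (2.07) and *DIN10*, a raffinose synthase-like enzyme (1.58), followed. None of the 7 starch genes passed at ZT12 and 5 were lower at ZT8, and the test of the difference between the times passed for 2.

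Heat-shock transcripts were less changed at ZT12 than 1 h into warmth. Of 23 chaperone genes 8 were higher at ZT12 and 0 lower, with a median of 0.32, whereas 22 were higher at ZT5 (at that time 7.59% of all genes were called, 4.03% higher and 3.56% lower) with a median of 4.72. The difference between ZT12 and ZT5 was tested in the same fit, passed for 1424 of all genes (6.77%), and passed for 21 of the 23. Most of the fall lay before ZT8. There 10 of the 23 were higher, against 5.18% of all genes, with a median of 0.55. The difference between ZT12 and ZT8 passed for 1 of the 23. *HSP70-4*, a cytosolic chaperone, stood at 4.18 and 4.21 in constant and at 22.8 and 19.1 in oscillating libraries at ZT12 (2.07 ± 0.17, SE, adjusted p = 6.32e-05), and at ZT5 at 6.72 and 6.98 in constant and at 1445 and 1243 in oscillating libraries. The ZT12 minus ZT5 difference of *HSP70-4* was -5.34 (adjusted p = 6.5e-07). *HSP90.1* (2.08), the mitochondrial *HSP23.5* (2.44), the co-chaperone *HOP3* (2.22) and *HSP17.4* (2.14) kept differences of like size to *HSP70-4*, and *ROF2*, a peptidyl-prolyl isomerase, had 1.27 at ZT12 and 7.35 at ZT5. *HSP17.4*, at 0 to 0.49 in the constant libraries over all times, passed the filter on low values only through oscillating libraries. The counts for chaperones include it, so they are no test of that gene.

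Among regulators of the heat response 5 of 9 were higher. *MBF1C*, a transcriptional coactivator of thermotolerance, stood at 9.92 and 22.03 in constant and at 106 and 60.8 in oscillating libraries (2.36 ± 0.44, SE, adjusted p = 0.00559). *HSFA3* had 1.35, and *HSFB2A* (0.87), *HSFA2* (0.79) and *DREB2A* (0.61) were closer to the threshold. Without the Col-0 pair *MBF1C* (1.42, adjusted p = 0.13), *HSFB2A* (0.40, adjusted p = 0.41), *HSFA2* (0.61, adjusted p = 0.2) and *DREB2A* (0.60, adjusted p = 0.22) did not pass. *DREB2A* also missed without the *pif7* pair (0.61, adjusted p = 0.17) and without ZT4, ZT5, ZT8 or ZT20, and *HSFB2A* had 1.35 without the *pif7* pair.

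**Figure D4:**
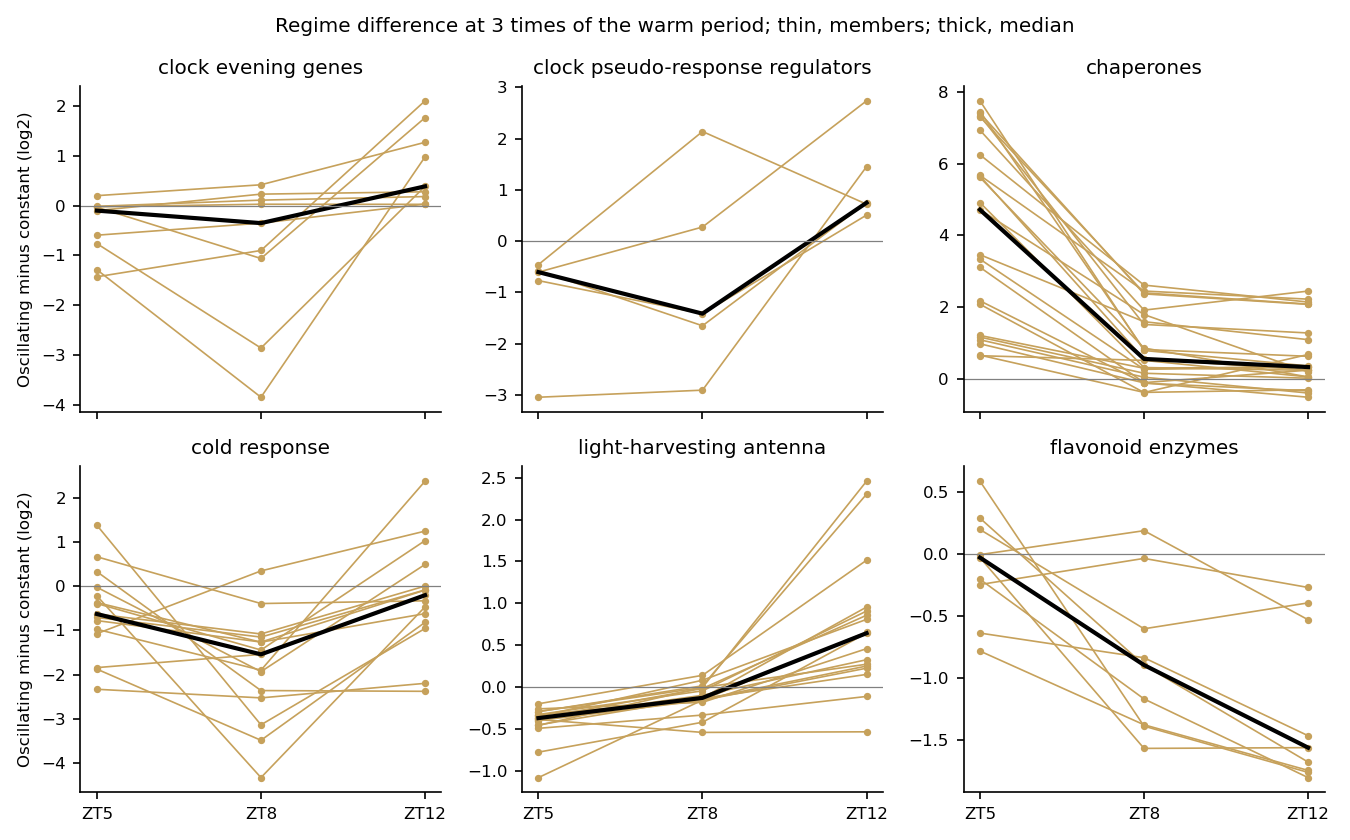
Regime difference (y axis, oscillating minus constant, log2, averaged over both genotypes; the scale differs between panels) at ZT5, ZT8 and ZT12 (x axis) for 6 gene lists; thin lines are tested members and the thick line is their median. The chaperone median falls from 4.72 at ZT5 to 0.55 at ZT8 and 0.32 at ZT12. The antenna median is 0.64 at ZT12 and below 0 before, and the flavonoid enzyme median reaches -1.56 at ZT12.

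Of 15 cold-response genes 3 were higher, 2 were lower and 10 did not pass at ZT12. The *CBF* genes encode the transcription factors of cold acclimation. *CBF3* stood at 0.60 and 0.42 in constant and at 7.76 and 5.95 in oscillating libraries (2.37 ± 0.21, SE, adjusted p = 8.37e-05). At ZT8 it was lower in the oscillating regime, with 7.48 and 9.83 in constant and 2.07 and 1.16 in oscillating libraries (-1.90, limma adjusted p = 0.00034). Its regime difference at ZT12 was 4.26 above that at ZT8 (adjusted p = 5.06e-05). *CBF2* (1.24) and *CBF1* (1.028) had the same direction as *CBF3* at ZT12. The 3 genes are neighbours of similar sequence, so reads may have been shared, and without the Col-0 pair *CBF2* (1.05, adjusted p = 0.12) and *CBF1* (0.96, adjusted p = 0.16) did not pass, nor did *CBF1* without the *pif7* pair (1.097, adjusted p = 0.092). Of the protective proteins that CBF factors are known to induce, the dehydrin *LTI30* went from 57.5 and 133 to 23.8 and 14.1 (-2.19, adjusted p = 0.00357) and *KIN1* from 37.8 and 71.5 to 13.3 and 6.32 (-2.37, adjusted p = 0.00905). Both missed the threshold without the *pif7* pair, *LTI30* at -1.24 (adjusted p = 0.063) and *KIN1* at -1.44 (adjusted p = 0.15). The *pif7* difference lay below that of Col-0 for 14 of the 15, with medians of 0.19 in Col-0 and -0.41 in *pif7*. Over all genes it lay below for 10371 of 21031. The lean is not particular to cold genes, as root markers had it in 11 of 13 cases. The 15 genes share 1 pair of libraries per genotype and are not replicates of a genotype effect. At ZT8 12 were lower and 0 higher, and the test of the difference between the times passed for 3 of the 15.

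Of 7 abscisic acid and dehydration genes 3 were higher and 4 did not pass, and of 7 fatty acid desaturases 1 was higher, 1 was lower and 5 did not pass. Over all genes 9.13% were higher and 7.05% lower, so the desaturase counts show nothing particular to that family. *RAB18*, an abscisic acid-induced dehydrin, went from 6.67 and 8.30 to 20.7 and 40.6 (1.83 ± 0.20, SE, adjusted p = 0.000289), and *GOLS1*, a galactinol synthase, had 1.54. *RD29B* was at the threshold (1.035, adjusted p = 0.0498), with 0.22 (adjusted p = 0.68) without the *pif7* pair, 1.85 without the Col-0 pair and no call without any 1 of ZT4, ZT5, ZT8, ZT16 or ZT20. *FAD8*, the plastid fatty acid desaturase known for its cool-dependent level, stood at 74.5 and 56.1 in constant and at 21.3 and 21.6 in oscillating libraries (-1.55 ± 0.21, SE, adjusted p = 0.000877). *FAD2*, the desaturase of the endoplasmic reticulum, had the opposite direction, from 295 and 272 to 597 and 667 (1.15 ± 0.16, SE, adjusted p = 0.000964).

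Flavonoid enzymes, which make the sunscreen flavonols and the red anthocyanins, were lower in 6 of 9 cases and higher in 0, with a median of -1.56 and all 9 below 0. *F3H*, an early step, went from 23.04 and 30.6 to 8.18 and 5.82 (-1.80 ± 0.18, SE, adjusted p = 0.00019). *CHS*, the entry enzyme, went from 52.1 and 63.3 to 20.3 and 14.7 (-1.68 ± 0.24, SE, adjusted p = 0.00124), and *CHI* had -1.47 and *FLS1* -1.74. *DFR*, at 2.26 and 3.65 against 0.26 and 0.05, and *LDOX*, the late anthocyanin steps, had -1.76 and -1.56, and *DFR* had -1.37 (adjusted p = 0.052) without the *pif7* pair. Their repressor *MYBL2* was the only one of 6 regulators to pass, from 10.4 and 8.95 to 59.3 and 64.0 (2.56 ± 0.20, SE, adjusted p = 4.45e-05). At ZT8 *MYBL2* was at 142 and 153.5 in constant and at 158 and 163 in oscillating libraries (0.12, limma adjusted p = 0.763). The limit given for *PIF4* holds for it too. Of the 9 enzymes 6 were already lower at ZT8, with a median of -0.90, against 5.33% of all genes. A link between *MYBL2* and the enzymes was not tested. At ZT5 the regime difference of *MYBL2* had the other sign (-2.60), and the time difference of 5.15 passed (adjusted p = 1.76e-06).

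Of 10 photoreceptor genes 2 were higher, and of 9 light signalling genes 3 were higher and 1 lower, against 9.13% higher and 7.05% lower over all genes. *PHOT1*, a blue-light receptor for bending growth (0.89), and *PHYA*, the far-red receptor (0.73), were the photoreceptor genes that passed. *PHOT1* missed without the *pif7* pair (0.72, adjusted p = 0.11) and *PHYA* without the Col-0 pair (0.80, adjusted p = 0.12) or the *pif7* pair (0.67, adjusted p = 0.15). The B-box gene *BBX24* went from 44.1 and 50.5 to 163 and 156 (1.73 ± 0.14, SE, adjusted p = 4.61e-05), with *BBX18* (1.13) and *BBX25* (1.08) behind it. In the constant libraries of ZT8 *BBX24* was at 163 and 166, so the limit given for *PIF4* holds for it. *BBX18* had 0.88 (adjusted p = 0.078) without the Col-0 pair. *HYH*, the homologue of HY5, went the other way (-1.28, adjusted p = 0.00986), and had -0.76 (adjusted p = 0.17) without the *pif7* pair.

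Genes that PIF factors are known to activate came next, with brakes on PIF activity among them. *HFR1*, a helix-loop-helix brake on PIF activity that is itself a PIF target, stood at 2.498 in constant and 35.9 in oscillating Col-0 and at 3.68 and 13.2 in *pif7*. It was higher over both genotypes (2.498 ± 0.46, SE, adjusted p = 0.00531), with 3.40 in Col-0 and 1.60 in *pif7*, and did not pass without the Col-0 pair (adjusted p = 0.12). *PAR2* (1.60) and *PAR1* (1.21), of the same class, had 0.87 (adjusted p = 0.36) and 0.61 (adjusted p = 0.47) without the Col-0 pair, and *PAR1* also missed without ZT8 (adjusted p = 0.053). *ATHB2*, a shade-induced homeodomain gene, rose from 4.35 and 4.48 to 10.6 and 9.68 (1.04 ± 0.16, SE, adjusted p = 0.00181). *HAT1* (0.54) did not pass without the Col-0 pair (adjusted p = 0.084), the *pif7* pair (adjusted p = 0.26) or ZT5 (adjusted p = 0.05). Of the 9 genes of this list 5 were higher.

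Of 8 small helix-loop-helix genes of growth control, activators and inhibitors of elongation among them, 4 were higher. *PRE1*, which frees growth factors from their inhibitors, went from 2.17 and 0.66 to 12.1 and 4.90 (1.94 ± 0.27, SE, adjusted p = 0.00104). *BEE3* (1.04), *IBH1* (0.86) and *HBI1* (0.77) passed, of which IBH1 is an inhibitor of elongation, but without the Col-0 pair they had 0.70 (adjusted p = 0.37), 0.71 (adjusted p = 0.12) and 0.81 (adjusted p = 0.11), and *BEE3* and *HBI1* had 1.38 (adjusted p = 0.063) and 0.74 (adjusted p = 0.11) without the *pif7* pair. *CPD*, a brassinosteroid synthesis enzyme, had 0.95 ± 0.11 (SE, adjusted p = 0.000483) and was the only gene of 11 in its list to pass.

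Auxin synthesis genes gave no call, with 0 of 8. *YUC8*, the enzyme best known for auxin production under PIF control, went from 1.31 to 4.26 in Col-0 and from 2.22 to 0.92 in *pif7*. Among 22 auxin response genes 7 were higher and 0 lower, and 6 of the 7 were *SAUR19* to *SAUR24*, a cluster of near-identical growth genes among which reads may have been shared. *SAUR19* stood at 1.06 and 0.18 in constant and at 14.8 and 6.80 in oscillating libraries (2.83 ± 0.44, SE, adjusted p = 0.00207), and *SAUR24* at 3.24 and 2.38 against 37.0 and 16.5 (2.77 ± 0.44, SE, adjusted p = 0.00232). Without the Col-0 pair *SAUR24* had 2.37 (adjusted p = 0.05), *SAUR22* 1.49 (adjusted p = 0.25) and *SAUR23* 1.94 (adjusted p = 0.17). The seventh was *IAA7* (0.93, adjusted p = 0.0328), which had 0.51 (adjusted p = 0.43) without the Col-0 pair.

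The feedback genes of the AUX/IAA family, which encode short-lived auxin repressors, gave 1 call of 11. *IAA29* stood at 1.51 in constant and 26.4 in oscillating Col-0, and at 1.34 and 1.97 in *pif7*. Only the oscillating Col-0 library was high. *IAA19* had 3.27 and 15.5 in Col-0 and 4.51 and 5.46 in *pif7*, and *IAA6* 0 and 4.97 in Col-0 and 0.23 and 0.25 in *pif7*. None of these 3 passed over both genotypes (1.90, 1.09 and 1.302, adjusted p = 0.158 to 0.164). All 3 passed when the 4 ZT12 libraries were fitted alone (adjusted p = 0.0034, 0.035 and 0.03). That fit has 1 residual degree of freedom, so its error rests mostly on the prior variance. Passing there does not show a regime difference in both genotypes. *IAA6* had 2.58 without the *pif7* pair. The *pif7* difference was below that of Col-0 for 11 of 11 AUX/IAA genes and for 19 of the 22 auxin response genes, with list medians of 1.22 in Col-0 and 0.23 in *pif7*, against 10371 of all 21031 genes. These genes share the same 4 libraries, with 1 pair per genotype, so they are not replicates of a genotype effect.

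Among 18 cell wall loosening genes the *pif7* difference was below that of Col-0 for 18 of 18, with medians of 0.88 in Col-0 and -0.03 in *pif7*. They too share the same 4 libraries and are not replicates of a genotype effect. Root markers, described below, lay below in 11 of 13 cases. Over both genotypes 2 of the 18 cell wall genes were higher and 1 lower, near the 9.13% and 7.05% over all genes. *XTH24*, a xyloglucan-modifying enzyme, went from 106 and 115 to 338 and 321 (1.57 ± 0.22, SE, adjusted p = 0.0013). *XTH22* was at the threshold (0.64, adjusted p = 0.0498) and did not pass without the Col-0 pair (0.32, adjusted p = 0.52), without the *pif7* pair (0.95, adjusted p = 0.05), or without any 1 of ZT0, ZT4, ZT5, ZT8 or ZT16. *XTH19* was lower (-1.23 ± 0.18, SE, adjusted p = 0.0016).

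Whether the regime difference at ZT12 depends on genotype was tested with an added term, with 1 pair per genotype and the other times as the only source of error. Limma called 0 of 21031 genes (0.0%), and the unadjusted p was below 0.05 for 1538. Among genes without any difference a share of 0.05 would also fall there, so neither the 1538 nor the genes named next are calls. The difference of *pif7* minus Col-0 was -3.099 for *IAA29* (unadjusted p = 0.0632), -2.55 for *IAA6* (unadjusted p = 0.0216) and -1.80 for *HFR1* (unadjusted p = 0.0413). For *PIF4* it was 0.48, and for *CIPK20* 0.01. These genes were picked from those described above and not by their p. Genes of other lists had a smaller unadjusted p than any of them, such as *PDF2.1* (-2.33), *GSTU25* (-2.45), *LTI30* (-1.91) and *RD29B* (1.625). In simulated data of this design 0% of genotype differences of 1 log2 unit and 33% of those of 2 units were recovered, so the lack of calls does not show that the genotypes respond alike.

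**Figure D5:**
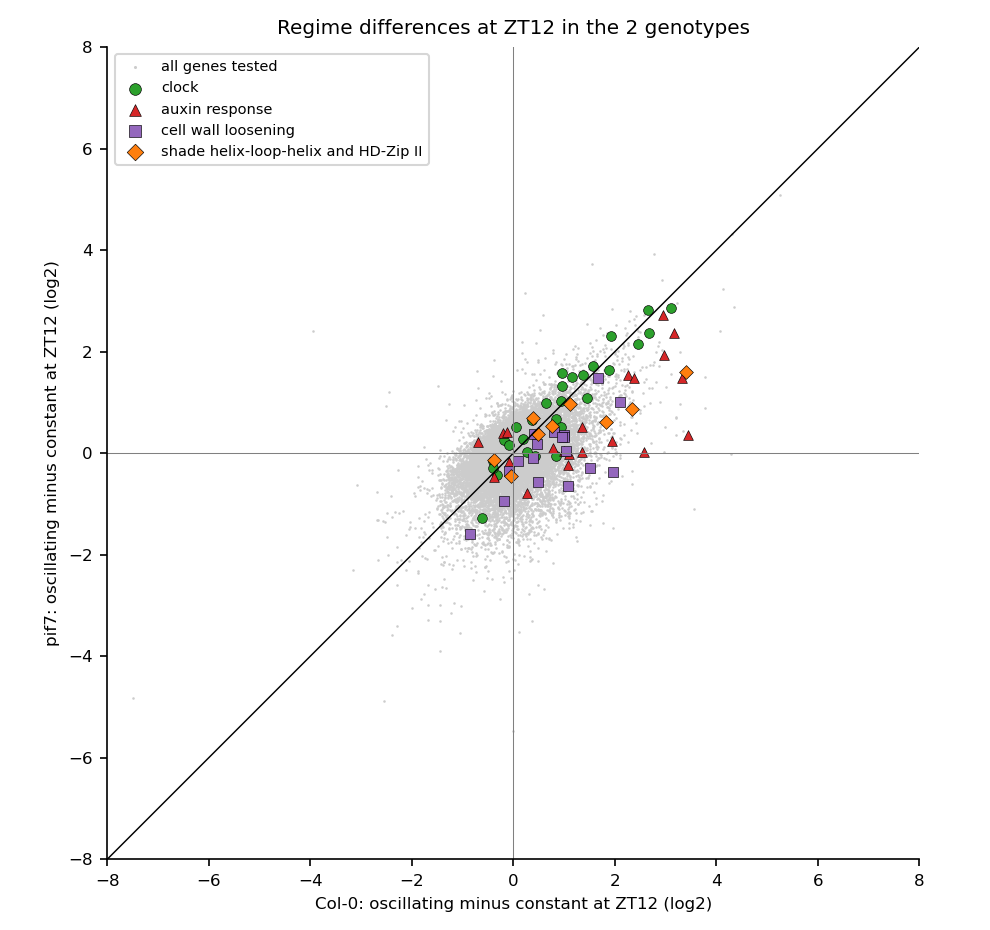
Regime difference at ZT12 in Col-0 (x axis) against that in *pif7* (y axis), both log2, with 1 point per gene; grey points are all genes tested, coloured symbols mark 4 groups of genes, and the diagonal is equality. The cell wall loosening genes lie below the diagonal in 18 of 18 cases and the auxin response genes in 19 of 22. All points come from 1 pair of libraries per genotype, so genes are not replicates.

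Among the 10 genes with the lowest differences *PDF2.1*, a defensin, stood at 34.4 and 80.5 in constant and at 5.00 and 1.75 in oscillating libraries (-3.72 ± 0.44, SE, adjusted p = 0.00046). *XTH20*, a xyloglucan-modifying enzyme, had a difference of -2.98 ± 0.33 (SE), *MES18*, a methylesterase, 14.6 and 23.7 against 2.16 and 1.34 (-2.85 ± 0.30, SE), and *ACD6*, a membrane protein of salicylic acid defence, 35.2 and 21.9 against 3.07 and 3.62 (-2.73 ± 0.30, SE). In each of the 4 genes both oscillating libraries lay below both constant ones. *GSTU25*, a glutathione transferase, had -2.67, and -1.44 (adjusted p = 0.071) without the *pif7* pair, and *MEE3*, a small MYB-like protein, had -2.44. The 10 lowest also held AT3G01260 (-2.53) and 3 chloroplast genes, ATCG00260 (-6.16), ATCG00370 (-2.48) and ATCG01190 (-2.38). ATCG00260 and ATCG00370 are 72 and 87 bases long, and TPM values of genes shorter than a library fragment are uncertain. ATCG00260 and ATCG01190 did not pass without the Col-0 pair (-4.84, adjusted p = 0.25, and -2.11, adjusted p = 0.097), nor did ATCG00260 and ATCG00370 without the *pif7* pair (-7.49, adjusted p = 0.069, and -1.67, adjusted p = 0.1).

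Of 13 root marker genes tested 5 were lower (*WER*, *PIN2*, *COBL9*, *PRP3* and *PLT1*) and 8 did not pass. All 13 were below 0, with medians of -0.34 in Col-0 and -1.003 in *pif7*. Without the *pif7* pair none of the 5 passed: *WER* had -0.91 (adjusted p = 0.23), *PIN2* -0.75 (adjusted p = 0.24), *COBL9* -0.70 (adjusted p = 0.15), *PRP3* -0.34 (adjusted p = 0.47) and *PLT1* -0.63 (adjusted p = 0.19). Without the Col-0 pair *PRP3* (-1.32) and *WER* (-1.93) kept the call, and *PRP3* lost it without ZT4 or ZT16. The summed level of the root list went from 140 to 126 in Col-0 and from 166 to 89.8 in *pif7*. In whole seedlings fewer cells of a type and less RNA per cell cannot be told apart. The part of root tissue in the lower genes was not tested. Stomatal lineage markers gave 0 calls of 7, with summed levels of 59.9 to 74.0. Of 2 seed storage genes tested *CRA1* was higher (1.645), at 9.77 in the oscillating *pif7* library and 0.11 to 0.65 in the other 3, and it had 0.57 (adjusted p = 0.29) without the *pif7* pair and 2.72 without the Col-0 pair.

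Among defence and hormone genes *PR5*, a salicylic acid marker, went from 9.34 and 8.41 to 0.83 and 1.97 (-2.08 ± 0.22, SE, adjusted p = 0.000244), the only call among 6 genes. None of 11 jasmonate genes passed. Of 7 type A response regulators, which are induced by cytokinin and damp its signal, 3 were lower: *ARR15* (-1.74), *ARR7* (-1.20) and *ARR4* (-0.62). *ARR15* had -0.78 (adjusted p = 0.19) without the Col-0 pair and -2.70 without the *pif7* pair, *ARR4* -0.54 (adjusted p = 0.1) without the Col-0 pair, and *ARR7* -0.88 (adjusted p = 0.17) without the *pif7* pair.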

How the data were processed

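Total RNA of ground whole seedlings was made into directional libraries and sequenced in paired-end mode, per the labels' protocols. HISAT2 (alignment), StringTie (quantification) and the TAIR10 build are named per the submitters' processing notes; versions, strand setting and other options are not given in the sources used here, so overlapping and antisense genes may share reads. The deposited tables give, per the file headers, for each gene a coverage signal, then FPKM, then TPM. Coverage and FPKM, as the authors deposited them, served only to derive depth. The deposited TPM column sums to 1000000 over assembled loci and to 1010427 to 1034801 over the 33602 reference genes, so it is another unit than strict TPM; only reference gene rows were used. No read counts entered the fits, and intervals for counting error cannot be given. RefSeq symbols (TAIR10.1) matched 32835 genes, and 32834 of these overlap at the deposited coordinates.

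TPM was rescaled by median-ratio factors, 1 was added, and genes were kept where 2 or more libraries reached a TPM of 1. Limma 3.58.1 (R 4.3.3) was run on the log2 values with its trended prior variance. The model has a term for each genotype and time, which makes the genotype pairs the block, and a regime term for each time, with 7 residual degrees of freedom. Contrasts were ZT12, ZT12 minus ZT8, ZT12 minus ZT5, and an added *pif7* term at ZT12. Fits were tested on simulated data for 21031 genes, of which 100 were changed by 1 and 100 by 2 log2 units. At ZT12 47% of differences of 1 and 96% of differences of 2 units were recovered, with 6 false calls. For ZT12 minus ZT8 the shares were 21% and 83%. Gene lists are described by counts and medians.

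The comparison, the gene lists and the rule for named genes were chosen with earlier results of these data known. The rule took the 10 highest and 10 lowest called genes with a mean of at least 5 rescaled TPM, up to 4 members per list by size, all PIF genes, *CIPK20*, 5 genes each way per time contrast and the 5 smallest p for the genotype contrast; not all are described. Other list members were named after their values were seen. Alternatives were 0.1 or 5 as pseudocount, all genes unfiltered, only genes whose TPM averaged 5 or more, TPM without rescaling, quantile normalization, nuclear genes only, removal of a gene length trend, no variance trend, no block, fewer libraries, and leaving out each pair or time. Python 3.11.15, pandas 2.3.3 and matplotlib 3.10.9 made tables and figures.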

Additional observations from a re-analysis of the deposited data

Results flagged for a closer look

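Regime differences that differed between ZT12 and an earlier time by a test of the difference itself were set aside for a closer look. Against ZT8 the test passed for 203 genes. Among those described above, the ZT12 minus ZT8 difference was 2.62 for *PIF4*, 1.54 for *PIF5*, 2.46 for *PRR7*, 4.36 for *PRR5*, 3.01 for *GI*, 4.83 for *FKF1*, 2.83 for *LUX*, 3.25 for *ELF4* and 4.91 for *COR27*. It was 4.26 for *CBF3*, 2.44 for *MYBL2*, 2.46 for *LHCB2.2*, 3.167 for AT3G55240, 3.299 for *CIPK20*, 5.22 for AT1G07050 and 5.22 for AT5G62360. It was below 0 for *CCA1* (-1.64), *COL1* (-2.73), *COL2* (-2.37) and AT1G64500 (-2.35). *PIF5* and *CCA1* were close to the threshold (adjusted p = 0.0416 and 0.0428), and each missed it in 11 of the alternatives, among them both pair omissions.

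Against ZT5 the test passed for 1424 genes. The ZT12 minus ZT5 difference was -4.50 for *HSP23.5*, -5.23 for *HSP90.1*, -5.34 for *HSP70-4* and -6.07 for *ROF2*. It was 5.15 for *MYBL2*, 6.79 for AT3G55240, 5.51 for *CIPK20* and 5.72 for AT5G62360.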

How the results depend on the processing

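The number of genes called at ZT12 (3402) was 2756 to 4283 under every alternative that kept both ZT12 pairs, all libraries of the fit bar 1 time at most, and the pairing. Without the replicate block, with the genotypes as replicates, it was 5366, with 2494 lower, and 449 for ZT12 minus ZT8 and 2701 for ZT12 minus ZT5. With only the libraries of the times compared the counts were 1789 (1086 higher, 703 lower), 70 and 554, where fewer residual degrees of freedom are left. Leaving out 1 pair or 1 time gave 1074 to 3636 in all, 503 to 2032 higher, 522 to 1604 lower, 93 to 213 for ZT12 minus ZT8 and 668 to 1589 for ZT12 minus ZT5. The lowest totals came from the omission of a ZT12 pair. The genotype difference had 0 calls, 35 with no filter on low values and 0 to 2 with 1 time left out (2 without ZT4); the cause was not tested. Unscaled TPM moved the median of all genes from 0.01 to -0.05 and the share of calls that were higher from 56.4% to 49.8%. Of 134 genes followed by name 115 passed at ZT12, none changed sign with a call, and 95 kept their call under all alternatives other than the pair omissions and the 4 libraries alone. Differences of low genes grow with a pseudocount of 0.1 and shrink with 5, as *CIPK20* does at 2.55 with 5. In the simulated data, where 100 genes differed by 1 log2 unit, 47% of these were recovered at ZT12. Far more genes were called in the deposited data, which loosens the adjusted threshold, so this share need not hold there.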

Other observations

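Among floral and phase-change genes in these 7-day-old seedlings, *SEP3* and *PI* were higher at ZT12 while other floral identity genes were at or near 0 or did not pass. The set of 14 genes was put together after *SEP3* and *PI* were seen among the highest differences, so it is a description and not a test. *SEP3*, a MADS-box cofactor of floral organ identity, stood at 2.13 and 2.35 rescaled TPM in constant and at 17.7 and 21.2 in oscillating libraries at ZT12 (2.65 ± 0.33, SE, limma adjusted p = 0.000637). *PI*, a petal and stamen identity gene, went from 1.66 and 1.19 to 13.9 and 10.4 (2.44 ± 0.31, SE, adjusted p = 0.000779). Its partner *AP3* was at 0.11 to 0.35 in all 4 libraries, and *AP1*, *AG*, *SEP1* and *SEP2* were at 0 to 0.14.

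*SPL3*, a phase-change factor, went from 1.70 and 4.06 to 19.5 and 19.8 (2.48 ± 0.33, SE, adjusted p = 0.00085), and its relative *SPL5* had 0.85 (adjusted p = 0.045). *SEP3* (1.38), *PI* (1.60) and *SPL3* (1.22) were also higher at ZT8. *SPL4* (0.13), *SEP4* (-0.28) and *SOC1* (-0.14) did not pass at ZT12. The other 7 of the 14 genes did not pass the filter on low values, and *SPL5*, at 0.12 to 0.75 in the constant libraries over all times, passed it only through oscillating libraries.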
